A study of Homo sapiens with 14 samples.

Results

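The MYC, MAX and MXD network of RS4;11 cells was followed through 24 h of dexamethasone at 10 nM, a synthetic glucocorticoid that activates the glucocorticoid receptor GR. RS4;11 comes from a human leukemia of B-cell precursors and carries a KMT2A rearrangement. The members were 9 genes, MYC, MYCN, MAX, MXI1, MXD1, MXD4, MNT, MLX and MYB, and a probe set was taken when the annotation listed it with exactly 1 gene and that gene was a member. This gave 18 of the 19070 probe sets with a single gene, and 8 of the 11963 genes measured by them. The 3 probe sets of MXD4 are each listed with 2 genes, so MXD4 has no value.

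The 14 arrays fell into 3 groups. Untreated cells had 4 arrays, and the groups at 8 h and at 24 h of treatment had 5 each. All cells, untreated ones included, had first spent 2 days in charcoal-dextran-treated serum, which removes hormone. There was no untreated group matched in time, so dexamethasone and time in culture cannot be told apart. Dexamethasone was added in ethanol, and no ethanol is stated for untreated cells, so the solvent cannot be told apart either. Whether each replicate was a culture of its own is not stated in the labels or methods. The p-values therefore rest on the spread over arrays alone, part of which may be technical. The comparisons ask how the transcripts of each member had moved at 8 h, how they stood at 24 h, and how the times differed.

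MYC is a transcription factor that drives genes of growth, ribosome production and the cell cycle, and it binds the E-box CACGTG only as a dimer with MAX. MAX also pairs with the MXD proteins, MXI1 among them, and with MNT. These dimers occupy the same E-boxes and recruit SIN3 and histone deacetylases, so the balance of partners sets whether an E-box gene is read. MLX is a relative of MAX that pairs with some MXD proteins, with MNT and with the glucose-sensing Mondo proteins. MYB is a factor of immature blood cells outside this dimer network and is often active beside MYC in leukemia.

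Values are log2 expression levels. Per array, the median over all probe sets was 6.03 to 6.05 without treatment, 6.03 to 6.09 after 8 h and 6.07 to 6.11 after 24 h. The sample descriptions end in a date-like suffix, which was read here as 5 runs on 4 days. What a run or a day marks was not stated. Runs 1 and 2 share day 1, and run 5 has no untreated array. The labelled B lineage was checked with marker genes, whose levels are first given singly because levels of different probe sets cannot be ranked. Group mean log2 levels were 9.64 to 10.19 for CD79A, 9.49 to 10.55 for CD79B, 8.73 to 8.78 for PAX5 and 12.75 to 13.04 for VPREB1. Others were less clear, as CD22 was called lower at both times (6.86 to 7.38) and DNTT fell from 6.29 to 4.48. Of the 8 T and NK cell markers, CD3D and CD3E had group means of 4.43 to 4.57, while NKG7 stood at 8.39 to 8.77. Averaged per array, the 8 B-lineage markers lay at 8.99 to 9.57, those of T and NK cells at 4.49 to 4.75, those of myeloid cells at 3.85 to 4.05 and those of erythroid cells and platelets at 4.43 to 4.72. These averages run over different probe sets, so they cannot be ranked either.

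The 250 bases before the start of MNT, MLX and MYB are shown because they set MNT, which has an E-box there and moved, beside MLX, which has one and did not pass the test, and beside MYB, which moved and has none there. They were taken from RefSeq on GRCh38.p14, at chr17:2401061-2401310 on the minus strand for MNT, chr17:42566850-42567099 on the plus strand for MLX and chr6:135181058-135181307 on the plus strand for MYB. Each runs 5′ to 3′ and ends at the base before the start, and capitals mark the E-box CACGTG, which reads the same on both strands.
MNT: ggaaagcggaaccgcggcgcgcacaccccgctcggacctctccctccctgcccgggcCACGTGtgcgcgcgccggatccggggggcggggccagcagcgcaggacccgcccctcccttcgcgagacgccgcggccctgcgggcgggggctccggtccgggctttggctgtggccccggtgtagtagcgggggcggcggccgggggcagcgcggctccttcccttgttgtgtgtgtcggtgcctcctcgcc
MLX: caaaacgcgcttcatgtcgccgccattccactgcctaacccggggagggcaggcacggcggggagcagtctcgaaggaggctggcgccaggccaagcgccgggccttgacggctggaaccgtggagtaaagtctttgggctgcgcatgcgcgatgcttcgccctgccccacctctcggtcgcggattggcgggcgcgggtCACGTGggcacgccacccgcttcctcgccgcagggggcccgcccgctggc
MYB: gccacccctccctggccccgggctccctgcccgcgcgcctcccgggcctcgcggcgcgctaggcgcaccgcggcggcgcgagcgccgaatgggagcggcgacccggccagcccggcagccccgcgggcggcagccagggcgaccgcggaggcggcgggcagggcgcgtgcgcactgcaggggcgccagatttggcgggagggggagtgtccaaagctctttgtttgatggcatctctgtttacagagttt
The first base of the E-box lay 193 bases before the start in MNT and 50 bases before it in MLX. No window of MYC was searched. Over the other 8 members, MXD4 included, there were 11 such windows. Of these, 3 held the motif, the third being that of MXD4, 238 bases before the start. None of the 3 windows of MXI1 held these letters. The motif stood in 2228 of 35116 RefSeq windows of the same length, which is 6.34%. A match is a description of the letters and not evidence of binding. The windows printed were picked with the changes on these arrays known, so they are no test of the motif.

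At 8 h, 4 of the 8 members with a value had fallen and none had risen. They were MYC, the MYC antagonists MXI1 and MNT, and MYB, with falls of 1.43-fold to 2.52-fold. Over all 11963 genes, 19.7% were called at 8 h and 11% were called lower, where called means an adjusted p below 0.05 in a limma fit over all genes. Genes called higher made up 8.69%. The 4 genes that fell were also those whose 8 h arrays all lay below the untreated arrays, a separation seen in 18.2% of all genes. The median log2 fold change at 8 h was −0.37 over the 8 members and −0.02 over all genes. By 24 h the members had parted. MYC was still low, MXI1 was back near its untreated level, and MNT and MYB lay between.

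**Figure D1:**
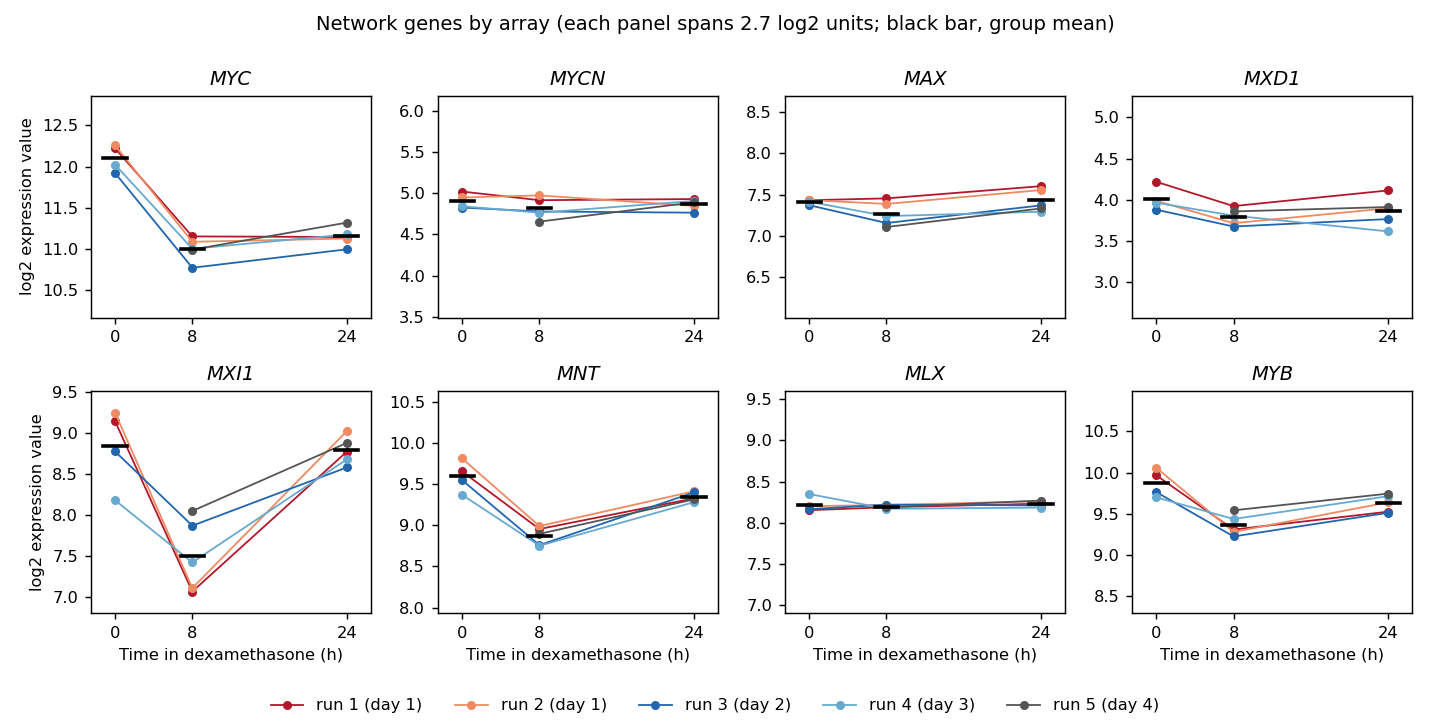
Log2 expression value of each network gene (vertical axis, every panel spanning the same number of log2 units) against time in dexamethasone in hours (horizontal axis, 0 for untreated), with one point per array, lines joining arrays of a run and black bars for group means of 4, 5 and 5 arrays. MYC dropped by 8 h and remained low at 24 h, MXI1 and MNT dropped and then rose, and the panels of MYCN, MAX, MXD1 and MLX are nearly flat.

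MYC, read by the probe set 202431_s_at, fell by 8 h and was still low at 24 h. Its log2 level was 12.22, 12.26, 11.92 and 12.02 on the 4 untreated arrays. It was 11.15, 11.08, 10.77, 10.99 and 11.00 on the 8 h arrays. It was 11.14, 11.12, 10.99, 11.32 and 11.17 on the 24 h arrays. Every treated array lay below every untreated array, while the 8 h and 24 h arrays overlapped. The mean log2 level was 12.11 ± 0.16 (SD, n = 4) in untreated cells, 11.00 ± 0.14 (SD, n = 5) at 8 h and 11.15 ± 0.12 (SD, n = 5) at 24 h.

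The fall of MYC at 8 h was 2.15-fold, a log2 fold change of −1.11 (SE 0.09, 95% interval −1.30 to −0.92, limma adjusted p = 2.12e-07). Only 45 of the 11963 genes had a more negative fold change at 8 h. At 24 h the fall was 1.94-fold, with a log2 fold change of −0.96 (95% interval −1.15 to −0.76, adjusted p = 2.40e-07), and 456 genes lay lower. From 8 h to 24 h the MYC level moved by 0.15 on the log2 scale with an interval of −0.03 to 0.33 (adjusted p = 0.226), so a rise of up to that bound was not resolved. Within the 4 runs that hold an untreated array, the log2 difference between 8 h and untreated cells was −1.17 to −1.02, and that between 24 h and untreated cells was −1.13 to −0.85. In bulk RNA, fewer cells with a transcript and less of it per cell cannot be told apart, and this holds for every member.

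MYCN, the MYC relative best known from neuroblastoma, did not pass the test in any comparison. Its log2 level, the mean of 3 probe sets, was between 4.66 and 5.02 over the 14 arrays, and the groups overlapped. These levels lay above the lower quartile of all probe sets, 4.18, but below the median of every array, so a change may be compressed. The log2 fold change was −0.09 at 8 h with an interval of −0.24 to 0.06 (adjusted p = 0.453) and −0.04 at 24 h (adjusted p = 0.703). The probe set 209757_s_at lay lowest at 8 h with a log2 fold change of −0.23, which did not pass over all probe sets (adjusted p = 0.0935), where 16.9% were called. It was called lower in the fit blocked by run (−0.21, adjusted p = 0.0442) and with array weights (−0.30, adjusted p = 0.0162).

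MAX, the shared partner, did not pass the test against untreated cells at either time. Its log2 level, the mean of 5 probe sets, was 7.43, 7.43, 7.37 and 7.41 in untreated cells. It was 7.45, 7.39, 7.15, 7.10 and 7.24 at 8 h. It was 7.60, 7.55, 7.37, 7.33 and 7.29 at 24 h. The untreated arrays lay close together and inside the range of both treated groups. The log2 fold change was −0.14 at 8 h with an interval of −0.32 to 0.03 (adjusted p = 0.277) and 0.02 at 24 h with an interval of −0.16 to 0.19 (adjusted p = 0.899), so a change as large as that of MYC lay outside the interval at both times.

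Between 8 h and 24 h MAX was higher in all 5 runs, by 0.05 to 0.23 on the log2 scale. The log2 fold change was 0.16 with an interval of −0.00 to 0.33 (adjusted p = 0.146), and it passed the test when runs entered the model as a block (0.16, adjusted p = 0.0278). Of its 5 probe sets, 209331_s_at and 209332_s_at rose from 8 h to 24 h with log2 fold changes of 0.22 (adjusted p = 0.0204) and 0.20 (adjusted p = 0.0287), where 24.9% of all probe sets were called. Both calls were lost without any 1 of several arrays. The call of 209331_s_at needed 8 h replicates 2 and 4 and 24 h replicates 3 and 5, and that of 209332_s_at needed 8 h replicates 1, 2 and 5 and 24 h replicates 4 and 5. The other 3 probe sets of MAX were not called, and 2 of these, 208403_x_at and 210734_x_at, carry the suffix of sets whose probes can bind related transcripts.

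MXI1, the MXD family member that competes with MYC for MAX, had the largest fall of the 8 members at 8 h over all arrays. It was near its untreated level again at 24 h. Within days 2 to 4, the log2 fold change at 8 h was −0.70 for MXI1 and −1.05 for MYC. The log2 level read by 202364_at was 9.14, 9.25, 8.77 and 8.18 in untreated cells. It was 7.07, 7.11, 7.87, 8.05 and 7.42 at 8 h. It was 8.77, 9.02, 8.58, 8.88 and 8.68 at 24 h. All 8 h arrays lay below all arrays of the other groups, and the 24 h arrays lay within the range of the untreated ones.

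The fall of MXI1 at 8 h was 2.52-fold, a log2 fold change of −1.33 (SE 0.22, 95% interval −1.80 to −0.87, adjusted p = 0.000339). From 8 h to 24 h it rose 2.43-fold, a log2 fold change of 1.28 (SE 0.21, 95% interval 0.84 to 1.72, adjusted p = 0.000183). At 24 h its level differed from untreated cells by −0.05 with an interval of −0.52 to 0.42 (adjusted p = 0.894), which is wide because the untreated and 8 h arrays were spread, with SDs of 0.48 and 0.44 on the log2 scale. Called genes made up 28.3% of all genes between 24 h and 8 h and 40.5% between 24 h and untreated cells.

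The log2 difference of MXI1 between 8 h and untreated cells was −2.07 and −2.13 in runs 1 and 2, both of day 1. In runs 3 and 4 it was −0.90 and −0.76. A fit with a term for day 1 against days 2 to 4 gave −2.10 on day 1 and −0.70 on days 2 to 4. The difference was −1.41 on the log2 scale (SE 0.27). The value for days 2 to 4 includes the 8 h array of run 5, at 8.05, and that run has no untreated array. The term was added because the run values had been seen, so the difference is a description. MXI1 fell in each of the 4 runs with an untreated array, and its call at 8 h held within day 1 and within days 2 to 4.

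MXD1, another MXD repressor, lay near the bottom of the array. Its log2 level was 4.22, 3.99, 3.88 and 3.96 in untreated cells and ranged from 3.67 to 3.92 at 8 h and from 3.61 to 4.11 at 24 h. Its mean of 3.88 was below the lower quartile of all probe sets, 4.18, so a change in this gene may be compressed. The log2 fold change at 8 h was −0.22 with an interval of −0.42 to −0.02 (adjusted p = 0.133), and MXD1 was lower than the untreated array in 4 of 4 runs. In the fit blocked by run MXD1 was called at both times, with log2 fold changes of −0.23 (adjusted p = 0.0146) and −0.17 (adjusted p = 0.0445). The call at 24 h was not made with the run as a random block (−0.16, adjusted p = 0.0935) or with the title number as a block (−0.12, adjusted p = 0.144).

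MNT, the MAX partner that occupies E-boxes of MYC in many cell types, followed the course of MXI1 with a smaller amplitude. The log2 level read by 204206_at was 9.66, 9.81, 9.55 and 9.37 in untreated cells. It was 8.96, 8.99, 8.76, 8.90 and 8.75 at 8 h. It was 9.33, 9.41, 9.40, 9.32 and 9.28 at 24 h. The 8 h arrays stood apart from both other groups, and the 24 h arrays overlapped the lower end of the untreated ones.

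The fall of MNT at 8 h was 1.65-fold, a log2 fold change of −0.73 (SE 0.08, 95% interval −0.90 to −0.55, adjusted p = 8.07e-06). From 8 h to 24 h it rose 1.39-fold, a log2 fold change of 0.48 (SE 0.08, 95% interval 0.31 to 0.64, adjusted p = 0.000182), and it was higher in 5 of 5 runs. At 24 h it was still called lower than in untreated cells, by −0.25 on the log2 scale with an interval of −0.42 to −0.08 (adjusted p = 0.0219). That call was lost without untreated replicate 1 (−0.23, adjusted p = 0.0613), untreated replicate 2 (−0.18, adjusted p = 0.0942) or 24 h replicate 5 (−0.23, adjusted p = 0.0503). Within days 2 to 4 the value was −0.13 (adjusted p = 0.244). In the fit over all probe sets, the call of 204206_at was also lost without 24 h replicate 1 (−0.24, adjusted p = 0.0515) or 24 h replicate 4 (−0.24, adjusted p = 0.0547).

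MLX, the partner of MNT and of the Mondo proteins, did not pass the test in any comparison. Its log2 level, the mean of 4 probe sets, was 8.15, 8.20, 8.16 and 8.35 in untreated cells, and between 8.17 and 8.27 on all treated arrays. The log2 fold change was −0.02 at 8 h with an interval of −0.13 to 0.09 (adjusted p = 0.864) and 0.01 at 24 h (adjusted p = 0.872). No probe set of MLX was called in any comparison. Its upstream window is one of those with an E-box, shown above.

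MYB, read by 204798_at and 215152_at, fell at 8 h and rose in part by 24 h. The mean log2 level of the pair was 9.97, 10.06, 9.76 and 9.70 in untreated cells. It was 9.31, 9.28, 9.22, 9.54 and 9.44 at 8 h. It was 9.52, 9.64, 9.51, 9.74 and 9.71 at 24 h. The 8 h arrays lay below all untreated arrays, while the 24 h arrays overlapped both other groups.

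The fall of MYB at 8 h was 1.43-fold, a log2 fold change of −0.51 (SE 0.09, 95% interval −0.70 to −0.33, adjusted p = 0.000432). The probe sets differed in size, with log2 fold changes of −0.31 for 204798_at (adjusted p = 0.00573) and −0.72 for 215152_at (adjusted p = 0.00154), and on both the untreated and 8 h arrays did not overlap. Neither probe set passed within days 2 to 4 alone, with −0.25 (adjusted p = 0.0687) and −0.41 (adjusted p = 0.0836). At 24 h against untreated cells, 204798_at had −0.19 (adjusted p = 0.0462) and 215152_at had −0.30 (adjusted p = 0.109), where 37.1% of all probe sets were called. Neither side of the threshold was stable. The call of 204798_at was lost without any 1 of the 4 untreated arrays, without 8 h replicate 3 or 5 or 24 h replicate 1, 2 or 3, and with cyclic loess (adjusted p = 0.107), while in the fit blocked by run 215152_at was called (−0.34, adjusted p = 0.0377). By day, the fall of MYB at 8 h was −0.72 on day 1 and −0.33 on days 2 to 4, a difference that did not pass the test (adjusted p = 0.131). The mean log2 levels of 204798_at were 12.87, 12.56 and 12.68 in untreated, 8 h and 24 h cells, and its untreated arrays had an SD of only 0.012.

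From 8 h to 24 h MYB rose by 0.27 on the log2 scale (SE 0.08, 95% interval 0.09 to 0.44, adjusted p = 0.0210), and it was higher in 5 of 5 runs. The rise was called for 215152_at (0.42, adjusted p = 0.0269) and not for 204798_at (0.12, adjusted p = 0.240). The call of 215152_at was lost without 8 h replicate 1, 2 or 3 or 24 h replicate 2, 4 or 5 (adjusted p = 0.0529 to 0.0722) and within days 2 to 4 (adjusted p = 0.0562). The gene's call was lost without 8 h replicate 2 (adjusted p = 0.0510), 8 h replicate 3 (adjusted p = 0.0556), 24 h replicate 4 (adjusted p = 0.0582) or 24 h replicate 5 (adjusted p = 0.0545). At 24 h MYB was called lower than in untreated cells by −0.25 with an interval of −0.43 to −0.06 (adjusted p = 0.0333). That call was lost without untreated replicate 1 (adjusted p = 0.0997), untreated replicate 2 (adjusted p = 0.129), 24 h replicate 1 (adjusted p = 0.0765) or 24 h replicate 3 (adjusted p = 0.0811), and within days 2 to 4 the value was −0.07 (adjusted p = 0.619).

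**Figure D2:**
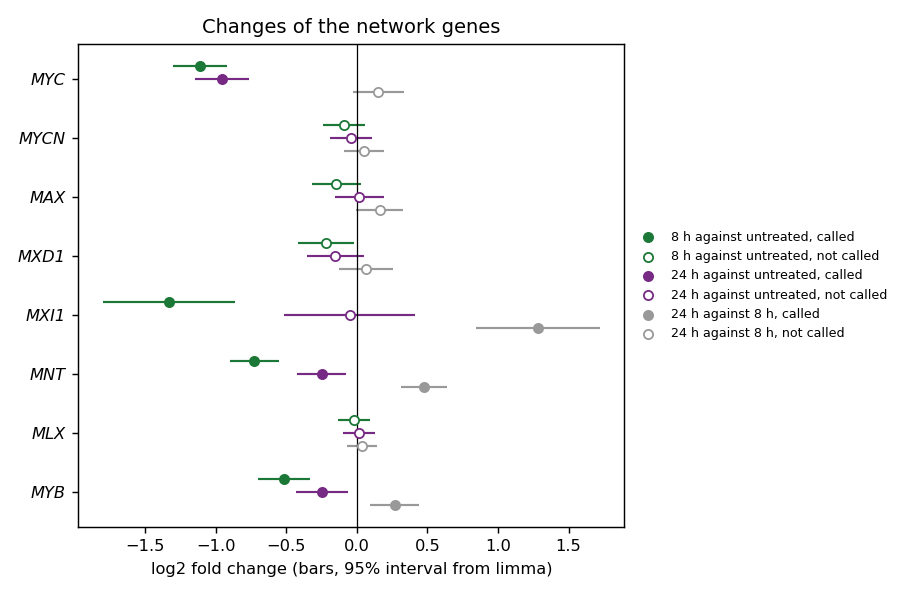
Log2 fold change of each network gene (horizontal axis, bars for the 95% interval of the limma fit over 14 arrays) for 8 h against untreated, 24 h against untreated and 24 h against 8 h, with filled points where the adjusted p was below 0.05. MYC lies near −1 against untreated cells at both times, whereas MXI1 lies at −1.33 at 8 h, −0.05 at 24 h and 1.28 between the times.

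Set side by side, the members followed more than one course. MYC fell and did not pass the test for a step back, with 0.15 between the times. MXI1, MNT and MYB fell and then rose by 1.28, 0.48 and 0.27, the 3 members called higher at 24 h than at 8 h, where 14.6% of all genes were called higher and 13.7% lower. The arrays of MXI1 and MNT did not overlap between these times, as for 22.4% of all genes. At 24 h against untreated cells 3 members were called lower, MYC, MNT and MYB, where 20.9% of all genes were, and none was called higher, where 19.5% were. Of the 3, only MYC had arrays that did not overlap, which 35.3% of all genes showed. The comparisons against untreated cells share their 4 control arrays. MYCN, MAX, MXD1 and MLX were not called in any of the 3 comparisons.

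**Figure D3:**
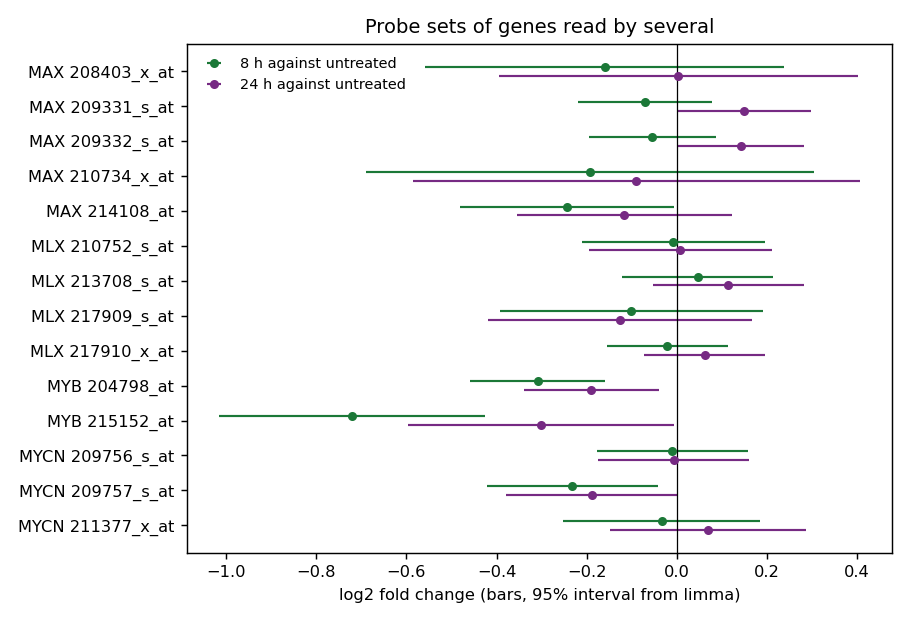
Log2 fold change (horizontal axis, bars for the 95% interval of the limma fit) at 8 h and at 24 h against untreated cells for the 14 probe sets of the network genes read by more than one. Both probe sets of MYB lie below 0 at 8 h, at −0.31 and −0.72, while the 5 of MAX and the 4 of MLX lie near 0 with intervals of unequal width.

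Over the 14 arrays, the genes whose log2 levels ran most like that of MYC were DYRK3, IL1B and ITGA4, with Pearson's r of 0.985, 0.971 and 0.970. For MXI1 they were MARCHF3, FNBP1 and MAPKBP1, with r of 0.955, 0.945 and 0.944. For MNT they were HERPUD1, ISCA1 and UBE2L6, with r of 0.940, 0.939 and 0.938, and for MYB they were CALCOCO2, PRL and GNAZ, with r of 0.949, 0.935 and 0.934. Among the members, MNT ran with MYB at r of 0.874 and with MXI1 at 0.840. The arrays fall into 3 groups and share runs, so these values describe likeness over this time course only.

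The genes that MYC-MAX dimers are known to activate fell widely. Of 41 measured, 30 were lower at 8 h, 38 were lower at 24 h, 35 were lower at 24 h than at 8 h, and none rose in any comparison. The median log2 fold change was −0.47 at 8 h and −0.96 at 24 h, against −0.02 over all genes at both times. Of all genes, 11% were called lower at 8 h, 20.9% at 24 h and 13.7% between the times. The list was chosen with earlier results of these arrays known, and ribosome genes of MYC were among them, so its direction is not independent evidence.

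Among them, CDK4, a kinase of the G1 phase, fell with log2 fold changes of −0.74 at 8 h and −1.86 at 24 h (adjusted p = 2.77e-12 at 24 h). CAD, which opens pyrimidine synthesis, fell with −0.62 and −1.72. PAICS and PPAT of purine synthesis fell with −0.94 and −0.82 at 8 h and −1.87 and −1.25 at 24 h. NME1, a nucleoside diphosphate kinase, fell with −0.73 and −2.58. CCND2, SHMT1 and POLR1B, named after their values were seen, were not called at 24 h, with log2 fold changes of 0.01, 0.12 and 0.16. The mean log2 levels of CCND2 and SHMT1, 3.24 and 3.55, lie below the lower quartile of all probe sets, 4.18. Between the times, where MYC itself was not called, the list had a median of −0.48.

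Genes of S phase were lower on the same arrays. All 16 measured were lower at 24 h, with a median log2 fold change of −2.39, and 12 were lower at 8 h, with a median of −0.49, against 20.9% and 11% of all genes. MCM4, a subunit of the replicative helicase, fell with log2 fold changes of −0.67 at 8 h and −3.40 at 24 h. The part of a smaller share of cycling cells in the fall of the MYC-activated genes was not tested.

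Genes known to be repressed by MYC moved in both directions. Of 18, 4 rose and 2 fell at 8 h, and 5 rose and 4 fell at 24 h, with medians of −0.04 and 0.002. The called genes made up 33.3% and 50% of the list, against 19.7% and 40.5% of all genes. NDRG2 and NDRG1, stress and differentiation genes, rose by 1.98 and 0.84 at 8 h and by 2.48 and 2.13 at 24 h on the log2 scale. GADD45B rose by 0.40 and 0.81. CDKN1B, the cell cycle inhibitor p27, was called at 24 h (0.52, adjusted p = 6.91e-05) and not at 8 h (0.24, adjusted p = 0.0527). CEBPA, a myeloid factor, fell with −0.63 and −0.58. The other genes called lower, named after their values were seen, were PDGFRB at both times (−0.71 and −0.69) and, at 24 h, KLF4 (−0.30) and CDKN1A. CDKN1A, the cell cycle inhibitor p21, had −0.44 at 24 h (adjusted p = 0.0127).

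**Figure D4:**
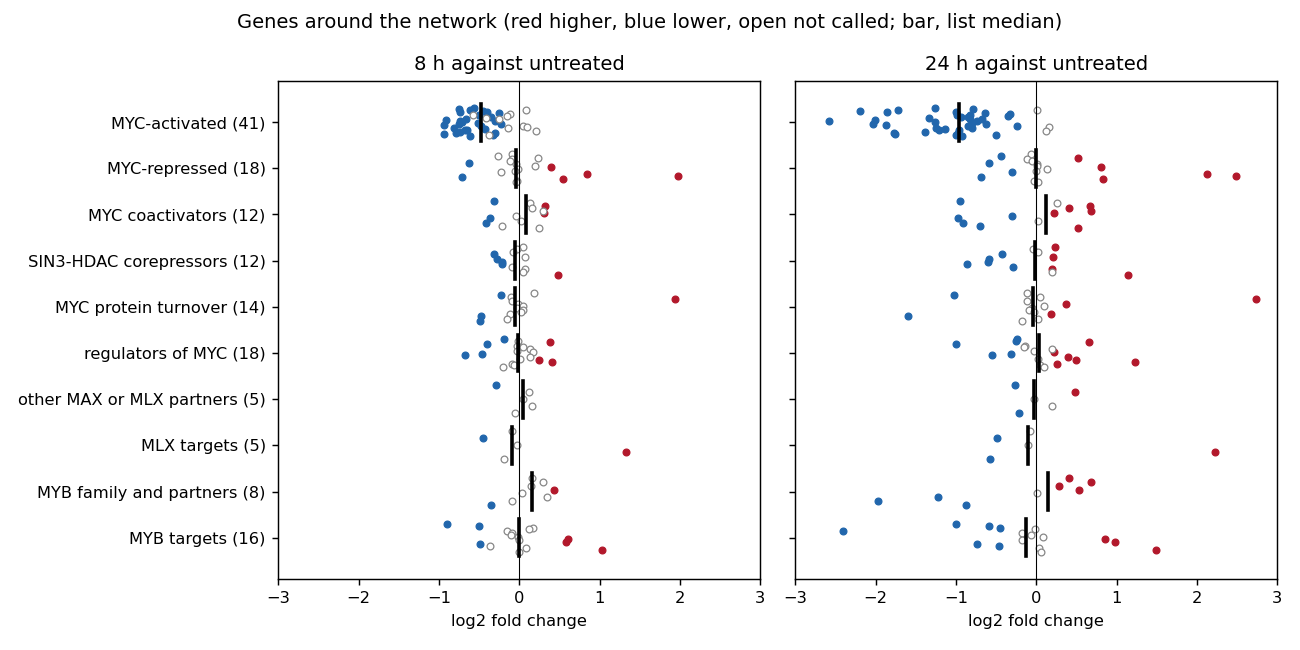
Log2 fold change (horizontal axis) at 8 h and 24 h against untreated cells for genes around the network, with 1 point per gene, red called higher, blue called lower, open not called, black bars for list medians and the number of measured genes in parentheses. The MYC-activated genes lie to the left at both times, with medians of −0.47 and −0.96, and the other lists shown have medians near 0. The genes of S phase are not shown.

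The genes that govern MYC protein included a large rise. FBXW7, the ubiquitin ligase subunit that marks phosphorylated MYC for degradation, rose by 1.94 at 8 h (adjusted p = 1.01e-10) and by 2.74 at 24 h (adjusted p = 3.86e-13) on the log2 scale, with a further step of 0.79 between the times. SKP2, another ligase subunit acting on MYC and on p27, fell with log2 fold changes of −0.48 and −1.60, and CDK2 fell with −0.23 and −1.02. USP36, which removes ubiquitin from MYC, was lower at 8 h by −0.49 (adjusted p = 0.0426) and not called at 24 h. Of 14 genes, 1 rose and 3 fell at 8 h, and 3 rose and 2 fell at 24 h. The called genes made up 28.6% and 35.7% of the list, against 19.7% and 40.5% of all genes. No protein was measured.

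Coactivators of MYC split in direction. Of 12, 2 rose and 3 fell at 8 h and 5 rose and 5 fell at 24 h. The called genes made up 41.7% and 83.3% of the list, against 19.7% and 40.5% of all genes. CDK9, the elongation kinase, rose by 0.32 and 0.67 on the log2 scale, and the TIP60 complex ATPase EP400 by 0.31 and 0.22. RUVBL1, ACTL6A and the acetyltransferase KAT2A were lower at both times, with −0.41, −0.32 and −0.37 at 8 h, then −0.91, −0.95 and −0.97 at 24 h.

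The corepressors that MXD and MNT dimers recruit also split. Of 12, 1 rose and 4 fell at 8 h, and 4 rose and 5 fell at 24 h, which is 41.7% and 75% of the list where all genes had 19.7% and 40.5%. SIN3B, a scaffold of the corepressor, rose by 0.48 and 1.14 on the log2 scale. The deacetylase HDAC2 fell with −0.31 and −0.42, and the histone-binding subunits RBBP7 and RBBP4 fell with −0.21 and −0.22 at 8 h and −0.86 and −0.60 at 24 h.

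Of the 5 other MAX and MLX partners, 20% were called at 8 h and 60% at 24 h, against 19.7% and 40.5% of all genes. Of MYCL, MXD3, MGA, MLXIP and MLXIPL, only MGA was called at 8 h, with a log2 fold change of −0.29 (adjusted p = 0.00399), and it remained lower at 24 h, with −0.27. MLXIP, the Mondo protein MondoA, rose by 0.48 at 24 h (adjusted p = 0.00181), and MYCL was lower by −0.22. Of 5 targets of the Mondo and MLX dimers, TXNIP, which restrains glucose uptake, rose by 1.33 at 8 h and 2.23 at 24 h, and KLF10 fell with −0.45 and −0.49. TXNRD1 was not called at 8 h and fell by 0.57 at 24 h. HK2 and PKLR were not called.

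Around MYB, its relatives were not called at 8 h and were lower at 24 h. MYBL2 and MYBL1 had log2 fold changes of −0.09 and 0.34 at 8 h and fell with −1.97 and −1.23 at 24 h. PSIP1, the LEDGF cofactor of KMT2A, fell with −0.36 and −0.87, and LIN37 rose by 0.43 and 0.53. Of 16 genes known as MYB targets, 3 rose and 3 fell at 8 h, and 3 rose and 6 fell at 24 h, or 37.5% and 56.3% beside 19.7% and 40.5% of all genes. LMO2, CXCR4 and FLT3 rose by 1.03, 0.60 and 0.58 at 8 h. BCL2, the survival gene, and ADA fell with −0.50 and −0.90, and CCNE1 fell by 2.40 at 24 h after a difference of −0.16 at 8 h that was not called.

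Of 18 genes that act upstream of MYC, 3 rose and 4 fell at 8 h and 6 rose and 5 fell at 24 h. Called genes were thus 38.9% and 61.1%, with 19.7% and 40.5% over all genes. NOTCH1, which drives MYC in T-cell leukemia, fell with log2 fold changes of −0.67 and −0.55, and LEF1 of the Wnt pathway fell with −0.46 and −0.31. CTNNB1, the β-catenin that pairs with LEF1, rose by 0.38 and 0.65. STAT3 rose by 0.40 and 1.22, and RBPJ, the DNA-binding partner of NOTCH1, by 0.24 and 0.50. E2F1, which is also among the MYC-activated genes, fell by 0.41 at 8 h and was also lower at 24 h.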

How the data were processed

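Total RNA of RS4;11 cells was measured on 14 Affymetrix-protocol arrays. Per the labels, the authors normalized the arrays with RMA in the affy package (versions not given in the sources used here) and deposited log2 values for 22277 probe sets. They left out 1 untreated array after quality control. By the platform annotation, 19070 probe sets had 1 gene, 1043 several and 2164 none listed, and 19058 matched RefSeq by gene ID. Single-gene probe sets were averaged per gene. The methods' variance filter, at the 0.5 quantile, was an alternative only, since it drops members by their spread over these arrays. It passes 8 of the 18 probe sets. limma 3.58.1 in R 4.3.3 (lmFit and eBayes, all 14 arrays, no block) gave the 3 comparisons, with Benjamini-Hochberg adjustment over 11963 genes or 19070 probe sets and a threshold of 0.05. The calculation was tested on simulated data with independent noise on each array, so likeness of arrays within a run or day was not covered.

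The runs and days were read from the date-like suffix of the sample descriptions, whose meaning is not stated. Residuals of same-run arrays correlated with r of 0.299 to 0.537 in all 13 pairs. Across runs, r was −0.469 to 0.473 in 52 pairs. The highest of these was between runs 1 and 2 of day 1, so pairing by run was not told apart from likeness by day. Blocked values stand beside printed results whose call they change. The number of arrays limits the precision. The members and gene lists were chosen with earlier results of these data known. The rule for named genes took all members, up to 4 genes per list and comparison with the smallest adjusted p, and the 3 genes with the highest r for each member. Not all are printed. Alternatives were filters, probe set choices, rescaling, blocks, array weights, other eBayes settings, only the groups compared, single days, a stricter threshold and each array left out. The fit with a term for the day was chosen after seeing the data.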

Additional observations from a re-analysis of the deposited data

Results flagged for a closer look

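On the MAX probe set 209331_s_at, 8 h replicate 5 had a log2 level of 8.29 while the other 8 h arrays lay between 8.03 and 8.10, a gap large for a group of this size. It was the 1 far sample among 78 sets of values checked. By chance alone the limit used flags about 1 in 20 sets. Genes with 1 probe set were counted both as gene and as probe set, so the sets are not all distinct.

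The change against untreated cells differed between 24 h and 8 h for 3 members, by the direct comparison of the times. The difference was 1.28 on the log2 scale for MXI1, 0.48 for MNT and 0.27 for MYB.

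The fall of MXI1 at 8 h was larger on day 1 than on days 2 to 4, by −1.41 on the log2 scale, in a fit with a term for the day that was added after the run values had been seen. The MXI1 level of untreated cells was 9.14 and 9.25 in runs 1 and 2, and 8.77 and 8.18 in runs 3 and 4. At 8 h it was 7.07 and 7.11 in runs 1 and 2, and 7.87 and 7.42 in runs 3 and 4. Run 5, which has no untreated array, had 8.05 at 8 h and entered the value for days 2 to 4. What differed between the days was not tested.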

How the results depend on the processing

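The falls of MYC, MXI1, MNT and MYB at 8 h, of MYC at 24 h, and the rises of MXI1 and MNT from 8 h to 24 h kept their direction and their call in all 29 alternatives. Their log2 fold changes ranged from −1.17 to −1.05, −2.10 to −0.70, −0.80 to −0.65, −0.72 to −0.31, −1.11 to −0.81, 0.93 to 1.81 and 0.40 to 0.53. No member or probe set reversed a called direction. Of the member values, 18 lost and 12 gained a call. With an adjusted p below 0.01, 1520 genes were called at 8 h instead of 2351, 662 of them higher and 858 lower. The members lower at 24 h numbered 1 instead of 3 at that threshold and 1 within days 2 to 4. Leaving out each array in turn gave 1 to 3, with 1 without untreated replicate 1 or 2. It gave 4 members lower at 8 h throughout, 2 to 3 higher from 8 h to 24 h, and 1959 to 2374, 4486 to 4871 and 3007 to 3379 genes called in the 3 comparisons. MYC-activated genes called lower were then 28 to 32, 37 to 38 and 33 to 35, a count added after seeing the data.

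With the run as a replicate block, 3243, 5525 and 4359 genes were called, and at the gene level the block changed no member call but those given for MXD1 and MAX. MYB did not pass between 8 h and 24 h on the probe set with the highest mean (0.12, adjusted p = 0.217) or within days 2 to 4 (0.26, adjusted p = 0.0643). MAX was called lower at 8 h within days 2 to 4 (−0.23, adjusted p = 0.0334), and MXI1 lower at 24 h within day 1 (−0.30, adjusted p = 0.0461). MAX was also called from 8 h to 24 h with array weights (0.20, adjusted p = 0.0377) and on the probe set with the highest mean (0.20, adjusted p = 0.0236). The same held without probe sets ending in _x_at (0.18, adjusted p = 0.0444). It held too with the title number as a block (0.16, adjusted p = 0.0372) or the run as a random block (0.16, adjusted p = 0.0499). In the alternatives not named here MAX was not called between these times. The causes were not tested. MXD1 and MYCN drop out under some filters and then have no value.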
